A study of Oreochromis niloticus with 12 samples.

Results

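The gene gatm encodes glycine amidinotransferase, the enzyme that makes the precursor of creatine. It was chosen by its measured values in these libraries, because its level differed widely between fish of the same group, and it is 1 gene of the 42609 to which the tables lead. Its levels, its spread and its difference between groups and within pairs are therefore given as a description, with no test. RNA of fast muscle from 12 Nile tilapia (Oreochromis niloticus) females at an age of 5 months was sequenced after removal of ribosomal RNA. The 6 Domesticated fish were a first generation undergoing domestication, and the 6 Wild fish were of wild type and at the same ontogeny stage. The Domesticated and Wild fish of a number (53, 63, 66, 68, 70 and 72) are genetically paired, each Domesticated fish being tied to a Wild progenitor, and libraries are named here by group letter and number, such as D53 and W53. No fish received an agent, no transgene was present, and the replicates are separate fish, so the p-values measure the spread between these fish. Domestication, generation and rearing changed together in this design and cannot be told apart.

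Glycine amidinotransferase works in mitochondria, where it moves the amidino group of arginine to glycine and so yields guanidinoacetate and ornithine. Guanidinoacetate is then methylated to creatine by the product of gamt, with S-adenosylmethionine as the methyl donor. In muscle, creatine kinases load creatine with phosphate and so buffer ATP during contraction. In mammals the kidney and pancreas are major sites of gatm activity, and in rat kidney creatine lowers and growth hormone raises its expression.

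Libraries held between 3395622 and 8478988 gene counts. Values are CPM (the share of a gene in the gene counts of its library, on the usual CPM scale), after each library total was multiplied by a TMM factor that allows for differences in library make-up. The factors lay between 0.614 and 1.81. Libraries W66 and W70 stood apart, with the highest factors (1.63 and 1.81) and the largest shares of reads outside annotated features (14.3% and 19.4%, against 6.97% to 13.7% in the other 10 libraries). The label of fast muscle was checked by 11 fast fibre markers, of which 10 had counts (mybpc2a was at 0). Their summed level was 55250 to 136177 CPM in Domesticated fish and 26444 to 139685 CPM in Wild fish, and that of 16 slow fibre markers was 158 to 696 CPM in Domesticated and 47.4 to 161 CPM in Wild fish. As RNA came from whole pieces of muscle, fewer cells of a type and less RNA per cell cannot be told apart in any value below.

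In the Domesticated fish gatm reached 2130 CPM in D63, 1077 in D72, 836 in D66, 555 in D70 and 409 in D68, while D53 had only 65.2 CPM. In the Wild fish it reached 445 CPM in W63 and 225 CPM in W68, against 28.7 in W70, 28.3 in W72, 19.5 in W53 and 7.91 in W66. The mean was 845 ± 719 CPM in Domesticated fish and 126 ± 176 CPM in Wild fish (SD, n = 6 each), and the medians were 695 and 28.5 CPM for Domesticated and Wild fish. Thus 5 Domesticated fish had a high level with D53 well below them, and 4 Wild fish had a low level with W63 and W68 well above them. The groups overlapped, as W63 and W68 exceeded D53 and W63 also exceeded D68. In 33 of the 36 combinations of a Domesticated with a Wild fish the Domesticated fish was higher, and 4 Domesticated fish exceeded the highest Wild fish.

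**Figure D1:**
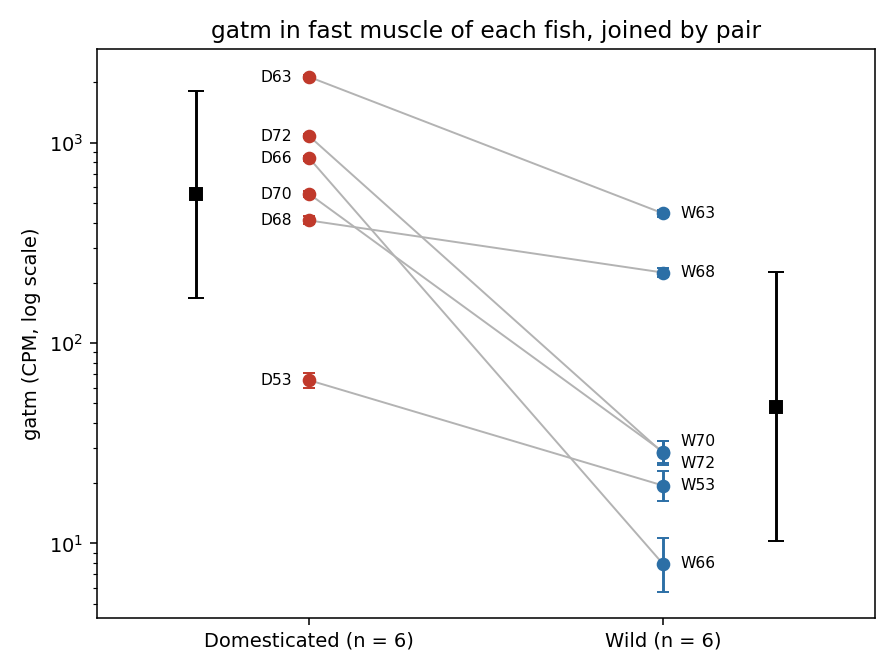
Level of gatm in each library in CPM on a log axis, with Domesticated fish on the left and Wild fish on the right. Grey lines join fish of the same number, bars on points are exact 95% Poisson intervals of the counts, and black squares with bars are the mean and SD of log2 CPM in each group (n = 6); the Domesticated point is the higher in 6 of 6 pairs, by 1.82-fold in pair 68 and 106-fold in pair 66.

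On the log2 scale gatm averaged 9.11 ± 1.72 in Domesticated and 5.60 ± 2.23 in Wild fish, a difference of 3.51 or 11.4-fold between geometric means. The difference was 3.00 without W66, 4.17 without W63, and 2.69 without W66 and W70 together. With plain library totals in place of TMM it was 3.11, where the median difference of all tested genes moved to -0.42. Thus the direction held under each of these settings.

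The range within a group was large. The highest Domesticated fish exceeded the lowest 32.7-fold, the highest Wild fish exceeded the lowest 56.2-fold, and the coefficient of variation was 85.1% in Domesticated and 140% in Wild fish. The counts behind these values ran from 582 in D53 to 9848 in D63 and from 43 in W66 to 2421 in W63. Counting error amounted to 1.01% to 4.15% of the value in Domesticated libraries and 2.03% to 15.2% in Wild libraries, far below the ranges between fish; the exact interval of the smallest count, in W66, was 31.1 to 57.9 counts. These errors cover counting only, since PCR copies were not marked.

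Few other genes varied as much between fish of a group. The SD of log2 CPM of gatm was 1.72 over the Domesticated and 2.23 over the Wild fish, while the median of the other 8424 tested genes was 0.52 in Domesticated and 0.59 in Wild fish. Only 151 of these genes had a larger SD in Domesticated fish and 52 had a larger SD in Wild fish. Among 218 genes within 2-fold of the mean level of gatm, 4 varied more in Domesticated fish and 3 in Wild fish.

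**Figure D2:**
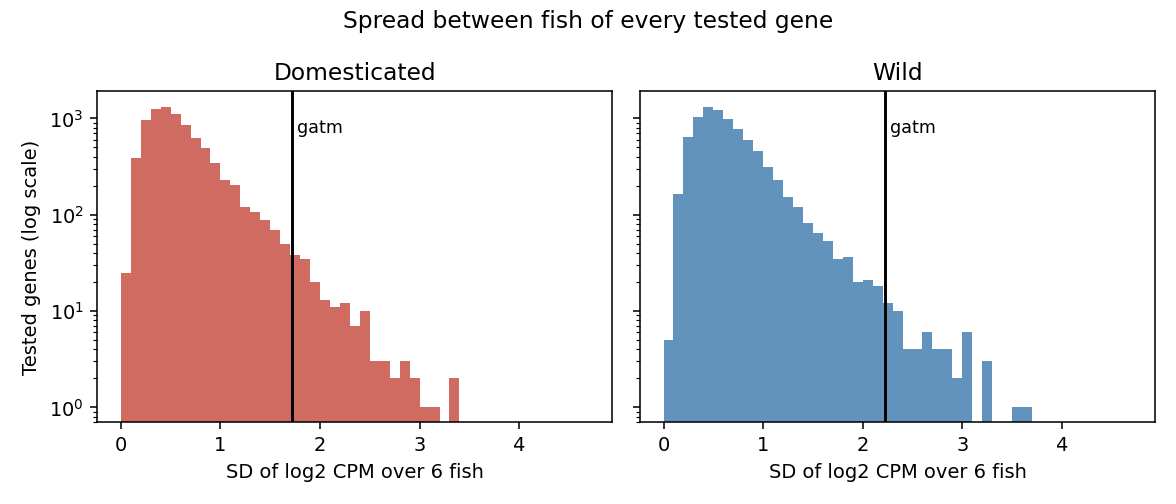
Number of tested genes (log axis) by the SD of log2 CPM over the 6 fish of a group, for Domesticated (left) and Wild (right) fish. The black line marks gatm, at 1.72 in Domesticated and 2.23 in Wild fish, in the right tail of both distributions.

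Within pairs gatm was higher in the Domesticated fish in 6 of 6 pairs, but the size of the difference was uneven. The Domesticated value exceeded the Wild value 106-fold in pair 66, 38.0-fold in pair 72 and 19.3-fold in pair 70, against 4.79-fold in pair 63, 3.35-fold in pair 53 and 1.82-fold in pair 68. The mean of the 6 log2 differences was 3.51 with an SD of 2.26. Pair 63 held the highest fish of both groups, whereas pair 66 joined the third highest Domesticated fish to the lowest Wild fish. Over pairs the log2 levels of Domesticated and Wild fish had a Pearson r of 0.37 and a Spearman rho of 0.31. This rested on pair 63, as r was -0.04 without it and -0.07 without pairs 68 and 63, the pairs of the Wild fish farthest from their median. It rose to 0.57 without W66. Over all tested genes the median r within pairs was 0.05, and 25.7% of genes had an r at least as high as that of gatm, so the pairs by number were no more alike in gatm than in many other genes.

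The gene on either side of gatm was looked at next. In the annotation O_niloticus_UMD_NMBU gatm has 1 transcript and lies between LOC100710099 and pde8a, a phosphodiesterase of cyclic AMP. LOC100710099 was nearly silent, with 1.63 ± 1.15 CPM in Domesticated and 0.92 ± 0.39 CPM in Wild fish (SD, n = 6 each), and did not pass the filter on low counts. The values for pde8a were 4.43 ± 1.36 CPM in Domesticated and 3.02 ± 0.84 CPM in Wild fish, a log2 difference of 0.54 with an SE of 0.29 (limma, adjusted p = 0.22). Its r with gatm over the 12 libraries was 0.56.

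The genes whose level over the 12 libraries was most like that of gatm were found by Pearson r of log2 CPM. An r of 0.9 or more was reached by 66 of 8424 genes (0.783%), and an r of -0.9 or less by 16. The 10 closest were LOC100700843 (r 0.98), calm3a (0.97), LOC100711168 (0.97), LOC100705189 (0.96), smpdl3b (0.96), fitm1 (0.96), sspn (0.96), bpgm (0.96), ywhag2 (0.96) and fitm1l (0.95). As they were picked by this measure, r is a description here. Spearman's rho of these genes was 0.91 to 0.97, and r was 0.79 to 0.98 within the Domesticated fish and 0.90 to 0.98 within the Wild fish. Leaving out any single library gave an r of at least 0.94, and plain library totals gave 0.85 to 0.97. These values come from the libraries by which the genes were picked, so they too are only a description.

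LOC100700843, which has no gene name in the annotation used, had 85.2 CPM in D53 and 305 to 668 CPM in the other Domesticated fish, against 391 and 207 CPM in W63 and W68 and 22.1 to 80.6 CPM in the other Wild fish. It thus split the fish in the way gatm did. The calmodulin gene calm3a, which codes for a calcium sensor, had 140 CPM in D53 and 326 to 557 CPM in the other Domesticated fish. In Wild fish it had 461 CPM in W63, 150 CPM in W68 and 37.7 to 63.6 CPM in the rest. Here again D53 was the lowest Domesticated fish and W63 the highest Wild fish. For bpgm, whose product makes 2,3-bisphosphoglycerate from a glycolytic intermediate, D53 had 58.0 CPM and the other Domesticated fish 198 to 410 CPM, while W63 had 101.4, W68 69.6 and the other Wild fish 10.7 to 46.4 CPM. Of the others, sspn codes for sarcospan of the dystrophin complex (118 ± 32.7 CPM in Domesticated and 50.4 ± 34.8 CPM in Wild fish). The product of fitm1, which in mammals takes part in lipid droplet formation in muscle, and the related fitm1l were lower in level, at 21.6 ± 8.85 and 37.5 ± 12.7 CPM in Domesticated fish and 9.87 ± 6.36 and 14.6 ± 11.4 CPM in Wild fish. The list was also joined by smpdl3b, a phosphodiesterase related to acid sphingomyelinase, and ywhag2, a 14-3-3 protein.

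The 10 genes that ran most opposite to gatm were atg2a (r -0.94), LOC100694810 (-0.94), stam (-0.93), pnrc1 (-0.93), slc29a3 (-0.93), dusp16 (-0.93), aebp2 (-0.92), ptpn1 (-0.92), abhd17ab (-0.91) and LOC100699353 (-0.91). Within the Domesticated fish their r was -0.69 to -0.98 and within the Wild fish -0.80 to -0.96, again a description of genes picked by r. The autophagy gene atg2a, which serves lipid transfer to the growing autophagosome, had 93.4 CPM in D53 and 23.7 to 44.0 CPM in the other Domesticated fish, against 37.8 CPM in W63, 66.6 CPM in W68 and 91.7 to 167 CPM in the other Wild fish. LOC100694810 had 121 CPM in D53 but 7.79 to 16.6 CPM in the other Domesticated fish, and 13.2 CPM in W63, 27.9 CPM in W68 and 52.9 to 105 CPM in the other Wild fish. For atg2a and LOC100694810, D53 and the Wild fish low in gatm were thus above all other fish. That did not hold for each of the 10 genes. For ptpn1 W68 had 43.9 CPM, above D53 (42.8) and W72 (40.7), and for pnrc1 W68 had 21.9 CPM, above D53 (17.6). Among the rest, dusp16 and ptpn1 code for phosphatases of MAP kinases and of the insulin receptor, and stam for an adaptor on endosomes. The membership of these lists depended on processing. With plain library totals 6 of the 10 most alike and 1 of the 10 most opposite remained, and without W66 and W70 3 and 2 of them did. Without W66 alone 5 of each list remained, and without D53 alone 7 of the alike and 5 of the opposite.

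**Figure D3:**
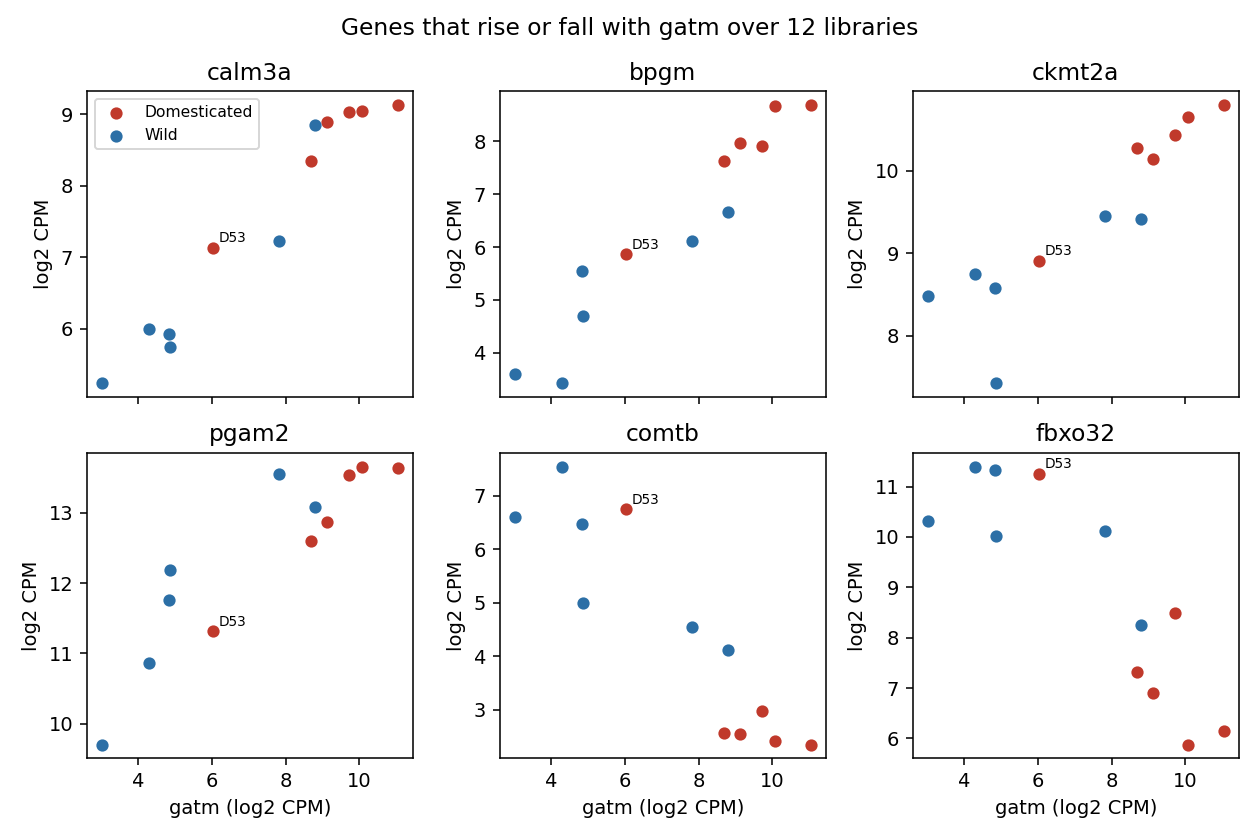
Log2 CPM of calm3a, bpgm, ckmt2a, pgam2, comtb and fbxo32 against log2 CPM of gatm in the 12 libraries, with 1 point per fish, Domesticated in red and Wild in blue. D53 is named in each panel and lies among or near the Wild fish, and W63 and W68 lie toward the Domesticated fish for calm3a, bpgm, pgam2 and comtb.

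To set genes of known function against gatm, a slope on log2 CPM of gatm was fitted for every tested gene with limma over the 12 libraries (the change in log2 CPM per doubling of gatm). The background is wide. Of 8424 genes, 1031 (12.2%) passed an adjusted p of 0.05, 602 (7.15%) rising and 429 (5.09%) falling with gatm. Plain library totals, which moved the median slope of all genes to -0.19, turned this into 131 rising and 3373 falling genes. With the group as a term beside gatm 234 genes passed, of which 192 were shared with the 1031, and with the pairs as a replicate block 502 passed, of which 391 were shared. Between the groups 1112 of 8425 genes (13.2%) were called by limma, 564 (6.69%) higher and 548 (6.50%) lower in Domesticated fish. Since gatm itself differed between the groups, a slope over 12 libraries mixes the difference between groups with the relation within them.

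The level of gatm also moved with the make-up of the library. Over the 12 libraries log2 gatm and the log2 TMM factor had an r of -0.87, or -0.81 with gatm as CPM of plain gene counts, and the r was -0.90 within the Domesticated and -0.87 within the Wild fish. With log2 TMM factor as a term beside gatm 285 genes passed, 138 of them rising. The share of gene counts held by the 10 most abundant genes was 40.4% to 51.0% in Domesticated and 35.8% to 52.9% in Wild fish. Its r with gatm was 0.70 (permutation test, two-sided, p = 0.0122, adjusted p = 0.061 over 5 measures) and its rho 0.73 (permutation adjusted p = 0.042), and r was 0.47 without the 2 libraries farthest from the median. Within groups the r was 0.85 in Domesticated and 0.78 in Wild fish. For gene counts r was 0.57 and rho 0.57 (permutation p = 0.0537 and 0.0578, adjusted p = 0.13 and 0.096), and for reads without a feature r was -0.51 and rho -0.59 (permutation p = 0.0833 and 0.0454, adjusted p = 0.14 and 0.096). The shares of ambiguous and of not uniquely aligned reads had r of -0.20 and 0.02 (permutation adjusted p = 0.65 and 0.94) and rho of -0.24 and -0.03 (permutation adjusted p = 0.57 and 0.92). These permutations shuffled all 12 libraries without regard to group or pair. As gatm differed between the groups, their p-values do not separate a relation within groups from the group difference. The part of library make-up in the relations below was not tested beyond the values given with the TMM term and with plain totals.

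**Figure D4:**
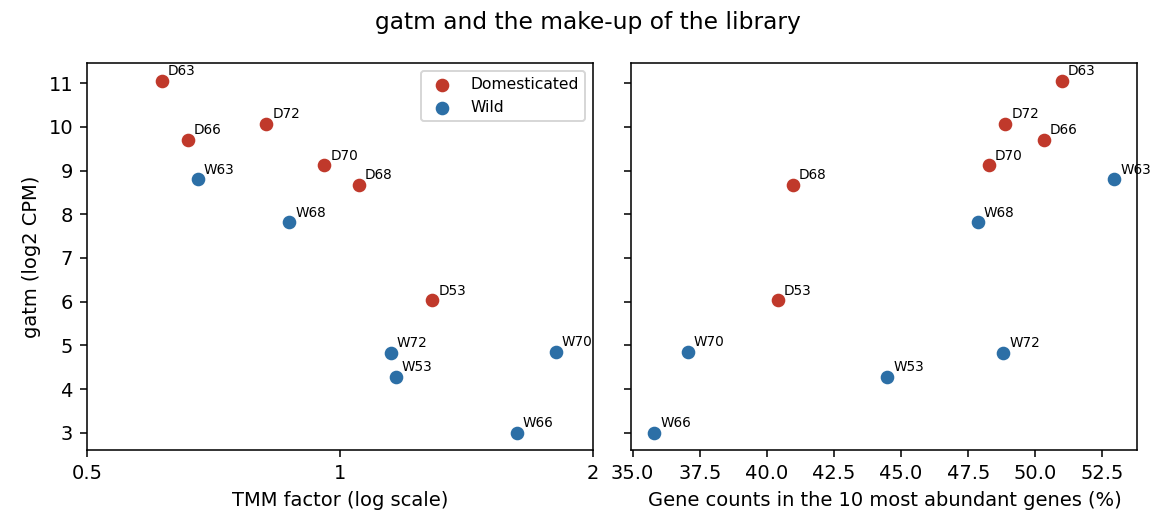
Log2 CPM of gatm in each library (Domesticated in red, Wild in blue) against the TMM factor on a log axis (left) and against the percentage of gene counts in the 10 most abundant genes (right). The fish with most gatm, D63, has the lowest factor, 0.614, and W66 and W70 have the highest factors, 1.63 and 1.81, and the smallest shares in the right panel.

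Of the genes that act next to gatm in creatine metabolism, 5 of 8 were tested, and only the mitochondrial creatine kinase ckmt2a was called. It rose with gatm by 0.36 (SE 0.06) on the log2 scale per doubling (limma, adjusted p = 0.0012). Its level was 481 CPM in D53 and 1134 to 1778 CPM in the other Domesticated fish, against 683 and 698 CPM in W63 and W68 and 172 to 428 CPM in the other Wild fish. It was also higher in Domesticated fish, at 1272 ± 454 CPM against 453 ± 203 CPM in Wild fish (SD, n = 6 each), by 1.52 on the log2 scale (SE 0.39, limma adjusted p = 0.020), though D53 lay within the range of the Wild fish. The slope on gatm kept its call with plain totals (limma adjusted p = 0.011) and with the replicate block (0.016), but not with the group (0.058) or the TMM factor (0.15) as a term. The group difference lost its call without W66 and W70 (limma adjusted p = 0.097).

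The gene of the next step, gamt, did not move with gatm. It ran from 118 CPM in D68 to 356 CPM in D63, and from 76.8 CPM in W70 to 435 CPM in W53. The means were 226 ± 90.2 CPM in Domesticated and 256 ± 146 CPM in Wild fish (log2 difference -0.04, SE 0.42, limma adjusted p = 0.97). W53, which was low in gatm, had the highest gamt. The slope of gamt on gatm was 0.09 (SE 0.08, limma adjusted p = 0.51), but its sign turned with plain totals (-0.12, adjusted p = 0.19), without W66 and W70 (-0.04, adjusted p = 0.81) and with the TMM factor as a term (-0.36, adjusted p = 0.041). The creatine transporter gene slc6a8 had low counts, at 2.08 ± 2.27 CPM in Domesticated and 5.01 ± 2.87 CPM in Wild fish. It has 3 transcripts in the annotation, and reads shared by them may be missing from its level, which was not tested. Its log2 difference was -1.90 (SE 0.69, limma adjusted p = 0.078, or 0.040 with the replicate block, 0.047 with plain totals, 0.039 without D66 and 0.047 without D68). The slope of slc6a8 on gatm was -0.24 (SE 0.16, limma adjusted p = 0.33). With plain totals it was -0.49 (limma adjusted p = 0.036), where 40.0% of all genes fell. Within Domesticated and Wild fish alone, its r with gatm was 0.05 and 0.06.

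The cytosolic muscle creatine kinases were abundant in every fish. The level of ckma was 51641 ± 10152 CPM in Domesticated and 43589 ± 23879 CPM in Wild fish, and that of ckmb was 45605 ± 10977 CPM in Domesticated and 37342 ± 21213 CPM in Wild fish (SD, n = 6 each; log2 differences 0.42 and 0.48, SE 0.43 and 0.46, limma adjusted p = 0.56 and 0.51). Their slopes on gatm were 0.17 (SE 0.06) and 0.17 (SE 0.07), with limma adjusted p = 0.093 and 0.12, and -0.003 and 0.002 with plain totals, and below 0 with the TMM factor as a term (-0.08 and -0.12). Without W53 the slope of ckmb was called (0.23, limma adjusted p = 0.042). The brain type ckba and the ornithine carriers slc25a15a and slc25a15b were too low to test, at 2.81 CPM or less in each library. They have 2, 4 and 4 transcripts in the annotation, so reads may be missing here too.

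Around creatine lie the genes that supply and remove arginine, glycine and ornithine, and those of the methyl donor. Over these lists and the creatine genes, 48 of 77 were tested. With gatm 11 rose and 1 fell, or 25.0% of those tested beside 12.2% of all genes, and 8 were higher and 0 lower in Domesticated fish, or 16.7% beside 13.2% (limma, with voom weights too; 14 were higher and 4 lower at an unadjusted p under 0.05). The median slope was 0.06, beside -0.01 for all tested genes. The counts were 10 to 13 for gatm and 6 to 12 between groups when any single library was left out, where 12 stands for the fit without W63. With the group as a term 1 of the 48 was called, and with the TMM factor as a term 2, both falling. Of all 8424 genes, 234 were called with the group and 285 with the TMM factor as a term. With plain totals the balance turned, as 4 rose and 14 fell, where 1.56% of all genes rose and 40.0% fell. Without W66 and W70, 2 were called between groups, where 292 of all genes were called.

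Of 26 arginine and glycine genes tested, 7 rose with gatm (7.15% of all genes did), or 5 with the replicate block. Those of ornithine and arginine were otc, which joins ornithine to carbamoyl phosphate (slope 0.25, SE 0.05, limma adjusted p = 0.0056), asl, which releases arginine (0.24, SE 0.07, 0.034), agmat, which splits agmatine (0.33, SE 0.08, 0.016), oaz1a, an inhibitor of ornithine decarboxylase (0.20, SE 0.05, 0.012), and oat, an ornithine aminotransferase (0.30, SE 0.09, 0.048, or 0.14 with the replicate block and 0.21 with plain totals). Within Domesticated and Wild fish alone, r with gatm was 0.67 and 0.83 for otc and 0.04 and 0.49 for asl. It was 0.54 and 0.79 for agmat, 0.49 and 0.77 for oaz1a, and 0.65 and -0.02 for oat. The log2 difference of oat between groups was 1.70 (SE 0.44, limma adjusted p = 0.022). With the group as a term its slope on gatm was 0.13 (limma adjusted p = 0.61). The level of asl was 6.92 to 11.1 CPM in Domesticated and 1.47 to 5.69 CPM in Wild fish (log2 difference 1.41, SE 0.31, limma adjusted p = 0.011). Its slope was not called without W66, W72, D66, D70 or D72 (limma adjusted p of 0.17, 0.053, 0.060, 0.060 and 0.069). The group difference of asl was not called with plain totals (limma adjusted p = 0.13). For oaz1a the range was 171 to 272 CPM in Domesticated and 85.9 to 191 CPM in Wild fish, with W63 alone above the lowest Domesticated fish (log2 difference 1.01, SE 0.24, limma adjusted p = 0.015, or 0.19 with plain totals and 0.072 without W66 and W70).

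Of the glycine and proline branches, gcat, which makes glycine from a product of threonine, had the steepest slope of the list (0.46, SE 0.09, limma adjusted p = 0.0065). It had 12.99 CPM in D53 and 30.2 to 48.2 CPM in the other Domesticated fish, against 28.8 CPM in W63 and 2.46 to 10.5 CPM in the other Wild fish. W63 again stood with the Domesticated fish and D53 near the Wild fish. The group difference of gcat was 2.18 on the log2 scale (SE 0.50, limma adjusted p = 0.015, or 0.066 without W66 and W70). The slope of aldh4a1, of proline breakdown, was 0.22 (SE 0.05, limma adjusted p = 0.015), and was not called without W66 (0.073), with plain totals (0.42) or with the replicate block (0.10). With plain totals the slopes of otc, asl, agmat and oaz1a were not called either (limma adjusted p of 0.17, 0.33, 0.094 and 0.50). There 1 gene of the list rose and 8 fell, beside 1.56% of all genes rising and 40.0% falling. Without W66 and W70 the slopes of asl, agmat and aldh4a1 were not called (limma adjusted p of 0.22, 0.096 and 0.14), nor was that of agmat without D63 (0.054). For gcat and aldh4a1 r with gatm was 0.78 and 0.75 within Domesticated fish and 0.51 and 0.72 within Wild fish.

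Of 17 methyl donor genes tested, 3 rose and 1 fell with gatm, beside 7.15% of all genes rising and 5.09% falling. With plain totals 2 rose and 5 fell, where 1.56% of all genes rose and 40.0% fell. The risers were mat2ab, of the synthesis of S-adenosylmethionine (slope 0.37, SE 0.09, limma adjusted p = 0.012), dmgdh, which demethylates dimethylglycine (0.37, SE 0.08, 0.0084), and sms, the spermine synthase (0.19, SE 0.05, 0.014). Within Domesticated and Wild fish alone, r with gatm was 0.91 and 0.58 for mat2ab, 0.28 and 0.65 for dmgdh, and -0.29 and 0.92 for sms. The level of mat2ab was 22.7 CPM in D53 and 99.6 to 361 CPM in the other Domesticated fish, against 205 CPM in W63 and 25.0 to 78.9 CPM in the other Wild fish. For dmgdh it was 10.9 to 34.6 CPM in Domesticated and 1.53 to 9.55 CPM in Wild fish (log2 difference 1.94, SE 0.40, limma adjusted p = 0.0082). The slope of sms was not called without W66 (limma adjusted p = 0.053), without W66 and W70 (0.092) or with plain totals (0.58). The transsulfuration gene cth was higher in Domesticated fish (33.9 ± 13.8 CPM against 15.6 ± 2.51 CPM in Wild fish, log2 difference 1.04, SE 0.25, limma adjusted p = 0.017, or 0.35 with plain totals and 0.053 without W66 and W70), but its slope on gatm was 0.10 (adjusted p = 0.34).

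The gene that fell was comtb, a catechol methyltransferase that uses S-adenosylmethionine. It had 107 CPM in D53 and only 4.97 to 7.72 CPM in the other 5 Domesticated fish, against 17.3 CPM in W63, 23.3 CPM in W68 and 31.6 to 186 CPM in the other Wild fish. Its slope was -0.67 (SE 0.08, limma adjusted p = 2.8e-04), and it was called with the group as a term (limma adjusted p = 0.014), with the TMM factor as a term (0.0055) and with the replicate block (0.0026). Its group difference of -2.45 (SE 0.77) had a limma adjusted p of 0.051, or 0.0034 without D53, 0.035 without W63 and 0.0058 with the replicate block.

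**Figure D5:**
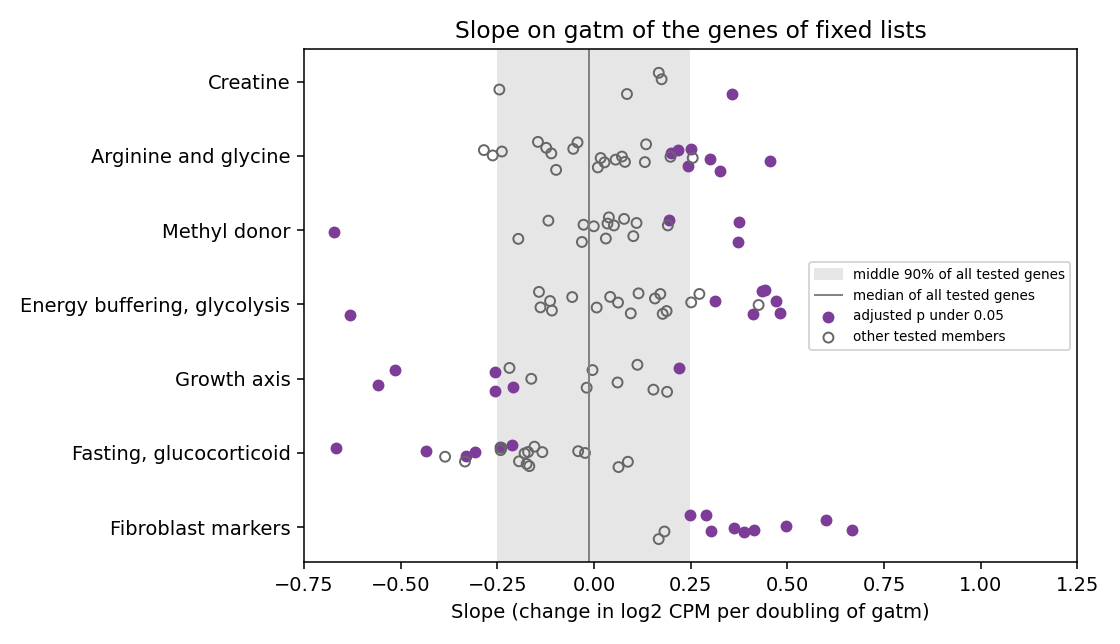
Slope on gatm (change in log2 CPM per doubling of gatm, 12 libraries) of the tested genes of 7 lists, filled where the limma adjusted p was under 0.05. The grey band holds the middle 90% of all tested genes and the line is their median; most fibroblast markers and 6 genes of glycolysis lie to the right of the band, and the filled points of the growth and fasting lists lie mostly toward or beyond its left edge.

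Genes of glycolysis rose with gatm. In a list of energy buffering and glycolysis 6 of 24 tested genes rose and 1 fell, or 29.2% beside 12.2% of all genes. The risers were pgam2, pfkmb, ldha and gapdh, with eno3 and pkmb, all enzymes of the path between glucose and lactate. The slope was 0.43 (SE 0.06) for pgam2, 0.48 (SE 0.08) for pfkmb, 0.44 (SE 0.07) for ldha and 0.41 (SE 0.08) for gapdh (limma adjusted p of 8.8e-04, 0.0017, 0.0018 and 0.0035). None of the 6 (0) was called between groups, and 0 had an unadjusted p under 0.05, by limma or by limma with voom weights. For pgam2, D53 had 2544 CPM and the other Domesticated fish 6222 to 12845 CPM, while W68 had 11939 CPM, W63 8679 CPM and the other Wild fish 835 to 4676 CPM. For ldha, D53 had 1026 CPM and the others 6342 to 11819 CPM, while W68 had 10479 CPM, W63 8606 CPM and the other Wild fish 864 to 3736 CPM. The groups thus overlapped widely, and in both groups the fish low in gatm were low in these enzymes. The count of risers was 6 to 8 when any single library was left out, 7 with the group as a term, 6 with plain totals and 4 without W66 and W70, but 3 with the replicate block and none (0) by limma with the TMM factor as a term, where 6 genes of the list rose at an unadjusted p under 0.05. The faller, ampd3b of AMP deamination, was named after its values were seen (slope -0.63, SE 0.12, limma adjusted p = 0.0041).

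Part of a list of genes known to respond to fasting and glucocorticoids went the other way. Of 21 tested 6 fell, beside 5.09% of all genes, and none (0) rose by limma, with voom weights too. Among those not called were fkbp5 (slope -0.19, limma adjusted p = 0.38), tsc22d3 (0.09, 0.47) and mt2 (0.06, 0.44). At an unadjusted p under 0.05, 13 fell and 0 rose. Between groups 10 of the 21 (47.6%) were lower in Domesticated fish by limma, beside 6.50% of all genes, and 0 were higher. This group count was 3 without D70, without D72, or without W66 and W70 together, and 5 without W53 or W68. Calls between groups over all genes changed too, from 1112 to between 628 and 1349 with any single library left out. The ubiquitin ligase gene fbxo32, known for its role in muscle atrophy, had the steepest slope (-0.67, SE 0.11, limma adjusted p = 0.0018). It had 2432 CPM in D53 and 58.7 to 360 CPM in the other Domesticated fish, against 304 CPM in W63 and 1036 to 2682 CPM in the other Wild fish. D53 and W63 each lay in the range of the other group. The transcription factor gene klf9 (slope -0.43, SE 0.10), txnipa, in mammals a brake on glucose uptake (-0.31, SE 0.08), and the pyruvate dehydrogenase kinase gene pdk2a (-0.24, SE 0.07) also fell with gatm (limma adjusted p of 0.016, 0.018 and 0.029). Within Domesticated and Wild fish alone, r with gatm was -0.88 and -0.71 for fbxo32 and -0.61 and -0.32 for klf9. It was -0.66 and -0.22 for txnipa and -0.87 and -0.61 for pdk2a. The count of fallers in the list changed with single libraries, as 1 gene fell without D63 and 3 fell without W53, W66, W72 or D72. Calls over all genes in either direction changed too, from 1031 to between 630 and 1249, and a drop in the list was not set apart from this. The list count was 1 with the replicate block, 3 without W66 and W70, 3 with the TMM factor and 18 with plain totals (where 40.0% of all genes fell). With the group as a term it was 0 by limma, where 4 fell at an unadjusted p under 0.05. Calls over all genes were 502 with the replicate block, 285 with the TMM factor and 234 with the group as a term.

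In the growth axis 5 of 14 genes fell and 1 rose with gatm, beside 5.09% of all genes falling and 7.15% rising. With the replicate block 2 fell and 1 rose, and ghrb, cisha and rps6kb1b lost their calls (limma adjusted p of 0.067, 0.060 and 0.22). The growth hormone receptor gene ghrb had 184 CPM in D53 and 8.22 to 27.4 CPM in the other Domesticated fish, against 32.7 CPM in W70 and 124 to 313 CPM in the other Wild fish (slope -0.52, SE 0.13, limma adjusted p = 0.024). W70, though low in gatm, was thus close to the Domesticated fish in ghrb. The others were cisha, an inhibitor of cytokine signalling (-0.56, SE 0.14, adjusted p = 0.018, at 8.64 CPM or less in each library), the insulin receptor gene insrb (-0.21, SE 0.06, adjusted p = 0.026), igf1ra and rps6kb1b, and the riser was igfbp5b, which binds insulin-like growth factors (0.22, SE 0.06, limma adjusted p = 0.022). Without D63 0 fell by limma, 1 fell without W53 or D72, 2 without W66 or W72 and 3 without D70, and igfbp5b lost its call without W53, W72 or D72. Calls over all genes in either direction were 630 to 1249 with any single library left out, beside 1031 with all libraries. With plain totals 8 fell (where 40.0% of all genes fell) and with the TMM factor as a term 2 fell, and igfbp5b was called in neither (limma adjusted p of 0.38 and 0.11). With the group as a term 0 genes of this list were called by limma, and at an unadjusted p under 0.05 2 rose and 1 fell.

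In the amino acid stress list trib3, a pseudokinase of that response, was the single gene of 9 tested (11.1%, beside 12.2% of all genes) that was called (slope -0.57, SE 0.14, limma adjusted p = 0.021). Its call was lost without W53, W66, D63 or D72, when 0 genes of the list fell. It was lost as well with the replicate block (limma adjusted p = 0.076), with the group as a term (0.45) and without W66 and W70 (0.076). With plain totals 5 of the 9 genes fell, where 40.0% of all genes fell. The gene trib3 had 1.77 to 19.7 CPM in Domesticated and 17.4 to 117 CPM in Wild fish, and D53 was above the lowest Wild fish. Of 8 tested targets of p53 0 were called with gatm by limma, with voom weights too, and 2 fell at an unadjusted p under 0.05. With plain totals 3 of the 8 fell (where 40.0% of all genes fell), without D63 1 rose and 1 fell, and without W63 1 fell.

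Markers of other cell types moved with gatm to unequal degrees. Fibroblast markers summed to 6039 CPM in D53 and 12290 to 29310 CPM in the other Domesticated fish, and to 586 to 10271 CPM in Wild fish. Of 17 such genes 15 had counts (col1a1a and postna were at 0), and 9 of 11 tested rose with gatm (7.15% of all genes did), 7 to 9 with any single library left out, 11 without W66 and W70, 6 with plain totals, 5 with the TMM factor, 4 with the replicate block and 1 with the group as a term. The r of their sum with gatm was 0.80, or 0.68 with plain totals. For erythrocyte markers (7 of 9 with counts, slc4a1a and slc4a1b at 0) the sum was 384 to 1146 CPM in Domesticated and 154 to 622 CPM in Wild fish, with an r of 0.92, or 0.81 with plain totals. Most of this sum was ank1a (710 ± 289 CPM in Domesticated and 275 ± 177 CPM in Wild fish, r 0.90), which was the 1 of 5 tested members that rose with gatm, and the r of the others lay between -0.42 and 0.62. For leukocyte markers (8 of 11 with counts, spi1a, spi1b and csf1ra at 0) it was 1341 to 4633 CPM in Domesticated and 941 to 2680 CPM in Wild fish, with an r of 0.84, or 0.34 with plain totals. Here lcp1 made up most of the sum (2432 ± 1209 CPM in Domesticated and 1278 ± 559 CPM in Wild fish, r 0.87). It and mpx were the 2 of 6 tested members that rose, while cd74a, coro1a, cd79a and marco had an r of -0.09, -0.00043, 0.08 and -0.42, and the median r of the list was 0.04. The sum of the fast fibre markers had an r of 0.88, or 0.77 with plain totals, and 3 of 7 tested members rose (7.15% of all genes did). The count was 3 with the group as a term and with plain totals, but 1 with the replicate block and 0 by limma with the TMM factor as a term. For slow fibre markers (15 of 16 with counts, tnnt1 at 0) the r was 0.52, or 0.20 with plain totals. Of 6 tested, 2 rose and 1 fell, beside 7.15% of all genes rising and 5.09% falling. Without W66 and W70, 0 slow fibre markers were called with gatm by limma. Endothelial markers (13 of 14 with counts, kdr at 0) summed to 96.1 to 268 CPM in Domesticated and 92.4 to 158.5 CPM in Wild fish, with an r of 0.50, or -0.34 with plain totals, and skin markers (9 of 10 with counts, dspb at 0) to 458 to 779 CPM in Domesticated and 241 to 706 CPM in Wild fish, with an r of 0.40, or -0.28 with plain totals. Of these, 0 of 7 endothelial and 0 of 6 skin markers tested were called by limma, with voom weights too. At an unadjusted p under 0.05, 2 endothelial markers rose (1 with voom weights) and 1 skin marker fell. Without W66 and W70, 2 skin markers rose, and without W66 alone 1. Adipocyte markers (13 of 13 with counts, sum 216 to 536 CPM in Domesticated and 190 to 452 CPM in Wild fish) had an r of 0.45, or -0.38 with plain totals, and 2 of 8 tested rose. Nerve and glia markers (13 of 15 with counts, nefla and snap25a at 0, sum 101.4 to 327 CPM in Domesticated and 156 to 346 CPM in Wild fish) had an r of 0.21, or -0.59 with plain totals, and 1 of 2 tested rose. The share of all genes that rose, 7.15%, stands beside the counts of erythrocyte, leukocyte, adipocyte and nerve markers too. A marker with several transcripts may have lost reads shared by them, so a marker at 0 is not shown to be silent. The part of these cells in the level of gatm was not tested.

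Markers of kidney and pancreas, in mammals major sites of gatm activity, and of liver had low summed levels. As reads shared by transcripts of a marker may be missing, a low sum does not show that a tissue was absent. Kidney markers (13 of 14 with counts, slc34a1b at 0) summed to 4.13 to 14.9 CPM in Domesticated and 10.2 to 30.1 CPM in Wild fish. Pancreas markers (10 of 10 with counts) summed to 5.93 to 12.9 CPM in Domesticated and 9.02 to 19.0 CPM in Wild fish, and liver markers (9 of 11 with counts, fabp10a and apoba at 0) to 0.90 to 4.97 CPM in Domesticated and 2.59 to 10.3 CPM in Wild fish. The r of these sums with gatm was -0.47 for kidney, -0.11 for pancreas and -0.49 for liver, though D63, the fish with most gatm, had the highest kidney and liver sums of the Domesticated fish.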

How the data were processed

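Fast muscle RNA of 12 fish was sequenced by the submitters, whose notes name Trimmomatic 0.33, STAR, HTSeq and edgeR. The deposited files hold counts of reads per RefSeq transcript, not normalized by the authors, in another table format than the unit check reads, so limma was used and no count model. What edgeR served for, the settings and the genome build of the deposited counts: not given in the sources used here. Of the aligned reads, 11.2% had no feature, 13.4% were ambiguous and 51.5% were not uniquely aligned on average. These 5 summary lines stayed out of totals and tests. A read shared by several transcripts of a gene may be among the ambiguous reads, which would lower the level of such genes. The size of this loss was not tested.

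The 80392 transcripts were summed to 42609 genes, of which 42607 matched the table of O_niloticus_UMD_NMBU. Tested were the 8425 genes, gatm included, that reached 10 counts (adjusted for library total) in 6 or more libraries and 15 counts in total. Log2 CPM (pseudocount 0.5, TMM) were fitted with limma 3.58.1 in R 4.3.3 (trend, robust, Benjamini-Hochberg over all tested genes, threshold 0.05), with condition or log2 gatm as the term. Differences are Domesticated minus Wild on the log2 scale, where the pseudocount makes the change of scarce genes look smaller. The code was tested on simulated data. Permutation tests used 100000 resamples drawn with NumPy 2.4.6, with ranks and adjusted p-values from SciPy 1.17.1.

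The labels pair the libraries by number. After subtraction of group means, same-numbered libraries had correlations of 0.21 (53), 0.12 (63), 0.046 (66), -0.10 (68), -0.089 (70) and 0.046 (72), and in 1 of 6 the partner was the best match. The unpaired fit was the main analysis.

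The gene, the lists and the markers were chosen with earlier results of these data known. Named are the 10 genes of highest and of lowest r with gatm, every tested creatine gene, up to 12 called genes of the pathway lists and up to 4 of each other list by smallest p, and the neighbours of gatm. Also named, beyond this rule, are eno3, pkmb and ampd3b of the energy list, igf1ra and rps6kb1b of the growth list, fkbp5, tsc22d3 and mt2 of the fasting list, and single markers. Alternatives were median-of-ratios scaling, plain totals, no filter on low counts, a pseudocount of 2, voom weights, Spearman's rho, the group or the pair number as a term, and leaving out each library. The TMM factor as a term and leaving out W66 and W70 were chosen after seeing the data.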

Additional observations from a re-analysis of the deposited data

Results flagged for a closer look

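In 50 genes named by rule each group was searched for a fish far from the other 5, by the gap of the highest or lowest fish to its neighbour over the range of the group (Dixon's ratio, at its 95% limit for 6 fish). This marked 8 of 100 groups, where chance gives about 1 in 20 for genes not chosen by their values. All 8 were Domesticated groups, and in 7 of them D53 was the fish apart. The ratio was 0.859 for comtb, 0.743 for pnrc1, 0.725 for LOC100694810, where D53 was the highest fish, and 0.745 for ldha, 0.656 for ckmt2a, 0.643 for gcat and 0.628 for bpgm, where it was the lowest. For txnipa D63 stood apart as the lowest fish (0.758). D53 was also the lowest Domesticated fish in gatm, but its gap there was under the limit. The genes were named partly for their likeness to gatm, so these marks are not independent of each other. For the same reason the rate of 1 in 20 is no yardstick for these genes.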

How the results depend on the processing

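Genes called between groups numbered 1112 (564 higher in Domesticated fish), but 680 (87) with plain totals and 292 (155) without W66 and W70, and 628 to 1349 (321 to 730) with any single library left out, the low counts being 628 (321) without D70, 648 (329) without D72, 668 (352) without W66 and 696 (351) without W70. Genes called against gatm numbered 1031 (602 rising), but 3504 (131) with plain totals, 502 (302) with the replicate block, 234 (148) with the group as a term and 285 (138) with the TMM factor as a term, and 630 to 1249 (398 to 736) with any single library left out, where 630 stands for D72 and 674 (398) for W66. Of the creatine, arginine, glycine and methyl donor genes 8 were called between groups and 12 against gatm, but 2 between groups without W66 and W70, and 1 and 2 against gatm with the group and with the TMM factor as a term. With any single library left out these were 6 to 12 and 10 to 13. The gatm difference was 3.00 to 4.17 on the log2 scale with any single library left out. The r within pairs was 0.63 without W66 and W70 and -0.04 to 0.57 with any single library left out. It was below 0 without W63 (-0.041) and without D63 (-0.044). The slopes of agmat (-0.028) and gamt (-0.36) turned sign with the TMM factor as a term. The cause of these changes was not tested. Of 640 values for single creatine, arginine, glycine and methyl donor genes under an alternative, 555 kept their sign and side of the threshold, 54 lost a call, 11 gained one and 20 turned sign. Of these 20, in 6 genes, 11 were of gamt, and 18 were called in neither fit. Besides the changes given in the report, the replicate block ended the group call of sms (limma adjusted p = 0.053, against 0.029). Low counts limit slc6a8 and cisha, each with 3 transcripts in the annotation, and the genes too low to test.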
